A study of Macaca mulatta with 12 samples.

Results

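The cells described here are the IgG-switched B cells of rhesus macaque blood, divided by the subclass that their heavy chain constant gene names. They were chosen as B cells, with the cluster that the authors named Contamination left out, that carried exactly 1 productive heavy chain contig with a constant gene call beginning IGHG. The rule gave 2217 cells of the 13849 in the deposited table, out of 13324 B cells and 10406 B cells with exactly 1 productive heavy chain. Of these, 2163 were IGHG1, 45 IGHG2, 6 IGHG3 and 3 IGHG4, so IGHG1 cells were compared with the 54 cells of the other 3 genes together. The choice used the constant gene only, and no expression value.

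The animals were 6 healthy, unmanipulated juvenile Macaca mulatta of Indian origin, aged 2 to 3 years, with no treatment in any of them. Blood mononuclear cells of 2 males (batch 1) and 4 females (batch 2) were each captured once for gene expression and for the B cell receptor, so sex and batch cannot be told apart. Both subclass groups came from the same libraries of each animal, and the animal is the replicate, except that gene comparisons within subtypes use pairs of groups from 1 animal and subtype. Animals are called male 1, male 2 and female 1 to female 4.

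IgG is the main switched antibody class of blood. Class switch recombination joins a rearranged heavy chain variable region to a downstream constant gene by deleting the DNA between them, so a cell that has switched cannot return to a deleted gene. Subclasses differ in the constant region and through it in binding to Fc receptors and complement, while the variable region, including the CDR3 at the V-D-J joint, decides what the antibody recognises. Somatic hypermutation, made by the same enzyme that starts switching, adds base changes to the variable region.

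Cells that shared a variable region show what the constant gene call was attached to. In female 1, 2 IGHG3 cells had the same IGHV3-59 rearrangement to IGHJ4 with an identical heavy CDR3 and an identical light chain CDR3 with IGKV1-77, and they were the only other-subclass cells in a clone of 2 or more IgG cells. Their CDR3 of 48 bases is printed first. The stretch from CDR1 to CDR2 (96 bases) follows for the unswitched form of that gene in female 1, found in 6 cells with 6 different CDR3s, and then for each IGHG3 cell, with bases that differ from the unswitched form in capitals. All are 5′ to 3′, from the deposited contigs.
IGHG3 clone, heavy CDR3: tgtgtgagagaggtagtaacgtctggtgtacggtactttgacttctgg
Unswitched IGHV3-59, CDR1 to CDR2: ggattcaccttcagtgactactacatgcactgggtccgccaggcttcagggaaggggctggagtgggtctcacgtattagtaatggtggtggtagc
IGHG3 cell in C-MBC 2: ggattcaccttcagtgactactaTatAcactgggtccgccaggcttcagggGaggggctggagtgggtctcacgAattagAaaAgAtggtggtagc
IGHG3 cell in M-MZL BC: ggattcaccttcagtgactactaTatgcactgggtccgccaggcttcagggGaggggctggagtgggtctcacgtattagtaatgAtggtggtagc
Over the 285 bases compared from the first to the third framework, the cells differed from the unswitched form at 12 and 8 positions and from each other at 4, and 8 differences were shared. The authors' annotation placed these 2 cells of 1 clone in different subtypes.

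A second set shows the only rearrangement in which an IGHG2 cell had related cells. Relatedness was taken as the same animal, IGHV gene, IGHJ gene and CDR3 length and 85% or more identical CDR3 bases. The IGHG2 cell of female 1 used IGHV4-73 with IGHJ4 and lay in C-MBC 1. Its relatives, an IGHG1 cell and a cell whose contig had no constant gene, both lay in CD11c+ MBC 2, and all 3 carried IGKV1-22, although no light chain CDR3 was the same. Capitals mark bases that differ from the IGHG2 cell.
IGHG2 cell, heavy CDR3: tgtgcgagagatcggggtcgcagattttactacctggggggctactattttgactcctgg
Relative with no constant gene: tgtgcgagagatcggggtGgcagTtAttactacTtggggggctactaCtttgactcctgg
IGHG1 relative: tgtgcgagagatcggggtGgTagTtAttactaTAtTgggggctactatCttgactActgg
Of the 60 bases, 5 differed in the cell without a constant gene and 9 in the IGHG1 cell, and over 288 variable region bases the IGHG2 cell differed from them at 31 and 28 positions. Such relatives were found for 3 of the 54 other-subclass cells (5.56%) and 170 of the 2163 IGHG1 cells (7.86%). No clone with an identical CDR3 spanned 2 subclasses.

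The 3 IGHG4 cells came from 3 animals and were among the cells with long CDR3s, so their CDR3s are printed. They used IGHV2-174 with IGHJ4, IGHV4S13 with IGHJ5-1 and IGHV5-20 with IGHJ6, respectively.
IGHG4 cell of female 1, 78 bases: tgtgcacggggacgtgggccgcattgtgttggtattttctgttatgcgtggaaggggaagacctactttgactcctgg
IGHG4 cell of female 3, 63 bases: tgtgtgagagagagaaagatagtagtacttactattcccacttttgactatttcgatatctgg
IGHG4 cell of female 4, 72 bases: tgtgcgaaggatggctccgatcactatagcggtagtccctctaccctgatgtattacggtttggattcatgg
Their mean CDR3 length was 23.7 amino acids, against 16.1 in IGHG1 cells, where lengths ran from 6 to 32. With 3 cells this is a description of those cells.

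IGHG1 made up 97.6% of IgG cells. The other 3 genes made up 2.44% (54 of 2217 cells, exact 95% binomial interval 1.83 to 3.17), and such intervals cover counting error only. By animal the share was 3.49% in male 1 (9 of 258 cells), 2.43% in male 2 (6 of 247), 2.35% in female 1 (12 of 510), 1.41% in female 2 (4 of 283), 1.55% in female 3 (12 of 773) and 7.53% in female 4 (11 of 146). Female 4, with the fewest IgG cells, stood above the other 5 animals, and its interval (3.82 to 13.1) lay wholly above the shares of the rest. The mean over animals was 3.13% ± 2.28 (SD, n = 6), with 2.96% over the 2 males and 3.21% over the 4 females. IGHG2 was found in every animal and held 10 of the 11 other-subclass cells of female 4. IGHG3 was seen in 4 animals and IGHG4 in 3.

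**Figure D1:**
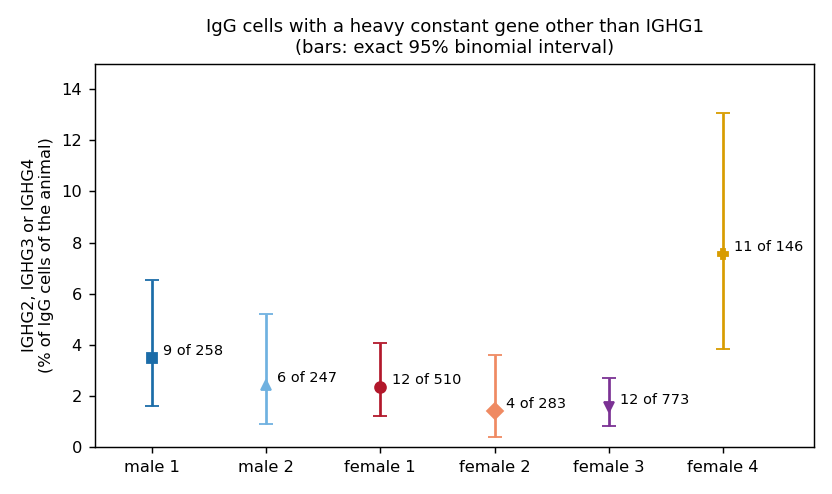
Each point gives the percent of an animal's IgG cells (vertical axis) whose heavy constant gene was IGHG2, IGHG3 or IGHG4, with an exact 95% binomial interval and the cell numbers beside it. The share was 7.53% in female 4 and 1.41 to 3.49% in the other 5 animals.

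The call rests on the start of the constant region that the contig reaches, and the reference behind it is not given in the sources used here. Heavy contigs of other-subclass cells had a median of 5.5 UMIs, against 7 in IGHG1 cells, and 9 of 54 and 252 of 2163 cells had fewer than 3. No other-subclass cell and 24 of the 2217 IgG cells had a barcode that also occurred in the library of another animal. Another 37 B cells with 2 or more productive heavy chains held an IGHG contig, 1 of them a contig other than IGHG1, and these stayed outside the groups.

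The expression table names no IGHG gene. With features listed only by an Ensembl identifier kept in the fit, edgeR called 10 of 217 of them (4.61%) over female 1, 3 and 4. Of these 10, 9 were lower in other-subclass cells. Over 6 animals it called 18 of 201 of them (8.96%, 13 lower). Over all features of the same fits, named or not, edgeR called 36 of 6188 and 125 of 5931. Of these features 2 are described here, both picked after their values were seen, and no name for them was found in the gene tables used. ENSMMUG00000040771 was called in both fits, and ENSMMUG00000015202 over 6 animals (edgeR adjusted p = 0.000211, higher in 5 of 6) but not over 3 (adjusted p = 0.0762, higher in 2 of 3). ENSMMUG00000015202 had a UMI in 30 of 45 IGHG2 cells (66.7%, exact interval 51.0 to 80.0), 4 of 6 IGHG3 cells and 3 of 3 IGHG4 cells. In IGHG1 cells it was 399 of 2163 (18.4%, 16.8 to 20.2), in IGHM cells 14.8% and in IGHA cells 8.50%. By animal the share in IGHG2 cells was 50.0 to 80.0% and in IGHG1 cells 15.4 to 23.7%, without overlap. The opposite held for ENSMMUG00000040771, with a UMI in 81.2% of IGHG1, 37.8% of IGHG2, 64.9% of IGHM and 30.1% of IGHA cells. By animal its share was 68.1 to 95.6% in IGHG1 and 30.0 to 50.0% in IGHG2 cells. Median expression UMIs per cell were 6716 in IGHG1, 8157 in IGHG2, 5156 in IGHM and 7316 in IGHA cells, and the part of depth in these shares was not tested.

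**Figure D2:**
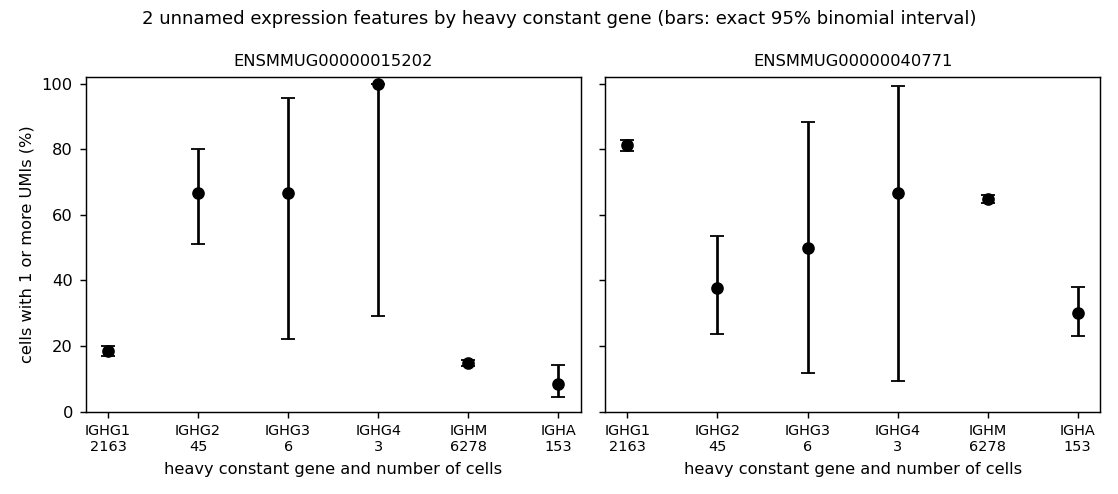
The percent of cells with 1 or more UMIs (vertical axis) of 2 features known only by identifier is shown for each heavy constant gene, with exact 95% binomial intervals and cell numbers. ENSMMUG00000015202 was at 66.7% in IGHG2 and 18.4% in IGHG1 cells, and ENSMMUG00000040771 at 37.8% and 81.2%.

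Cells with a subclass other than IGHG1 were found more often than IGHG1 cells in C-MBC 2, a memory cluster of the authors' annotation whose abbreviation is not spelled out in the sources used here. Of the 54 cells, 22 were in C-MBC 2 (19 IGHG2, 2 IGHG3 and 1 IGHG4), 16 in C-MBC 1, 11 in CD11c+ MBC 2, 3 in CD11c+ MBC 1, and 1 each among M-MZL BC and antibody-secreting cells. IGHG1 cells were instead most numerous in CD11c+ MBC 2 (671), C-MBC 1 (643) and CD11c+ MBC 1 (423), with 146 in C-MBC 2. Seen from the subtype, the other genes made up 13.1% of the IgG cells of C-MBC 2 (22 of 168, exact interval 8.39 to 19.1), 2.43% in C-MBC 1, 1.61% in CD11c+ MBC 2 and 0.704% in CD11c+ MBC 1. None was seen among 140 IgG cells of M-MBC 1 or 70 of M-MBC 2, which allows shares of up to 2.14% and 4.29% if a count of 0 is taken to allow 3 cells (exact 95% upper limits 2.60% and 5.13%).

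The share of cells in C-MBC 2 was higher among other-subclass than among IGHG1 cells in each of the 6 animals. It was 44.4% against 12.9% in male 1, 66.7% against 8.71% in male 2, 41.7% against 6.83% in female 1, 25.0% against 3.94% in female 2, 16.7% against 4.20% in female 3, and 54.5% against 11.9% in female 4. The lowest other-subclass share, in female 3, was above the highest IGHG1 share, in male 1. C-MBC 2 was not the fullest subtype everywhere, as C-MBC 1 held 75.0% of the other-subclass cells of female 2, and CD11c+ MBC 2 held 41.7% and C-MBC 1 33.3% of those of female 3. In the 3 animals with 10 or more cells in both groups (female 1, 3 and 4), the means were 37.6% ± 19.3 and 7.63% ± 3.89 (SD, n = 3). The log2 ratio of shares was 2.31 ± 0.26 (SE, edgeR quasi-likelihood test with the animal as block, adjusted p = 0.009), and C-MBC 2 was the only 1 of 8 subtypes called (12.5%). The exact two-sided sign-flip permutation test over these 3 animals gave p = 0.25, the smallest it allows. Over all 6 animals the difference was 33.4 percentage points ± 16.0 (SD), with an exact permutation p = 0.03125, the smallest that 6 animals allow, and an adjusted p = 0.0833 over 8 subtypes. Without the animal block edgeR called 0 subtypes over 3 animals, with C-MBC 2 still the one called over 6.

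With all 6 animals, edgeR called 3 of 8 subtypes (37.5%), C-MBC 2 higher, and CD11c+ MBC 1 and M-MBC 1 lower. CD11c+ MBC 1 held 5.09% ± 9.03 of other-subclass and 20.8% ± 4.96 of IGHG1 cells (SD, n = 6), a log2 ratio of -1.84 ± 0.65 (edgeR, adjusted p = 0.0298). It was lower in 5 of 6 animals, with male 1 the exception at 22.2% against 21.3%. M-MBC 1 held 0 of 54 other-subclass cells and 140 of 2163 IGHG1 cells (3.58 to 12.0% by animal, edgeR adjusted p = 0.0298). Only C-MBC 2 was called when female 1, female 3, female 4 or male 2 was left out. C-MBC 1 and CD11c+ MBC 2 were not called. For C-MBC 1 the means were 32.3% ± 25.4 and 29.3% ± 5.88, and for CD11c+ MBC 2 18.2% ± 16.1 and 27.0% ± 9.06, other-subclass against IGHG1 cells. Among the switched cells with other constant genes, 90 of 153 IGHA cells (58.8%) were in C-MBC 2.

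**Figure D3:**
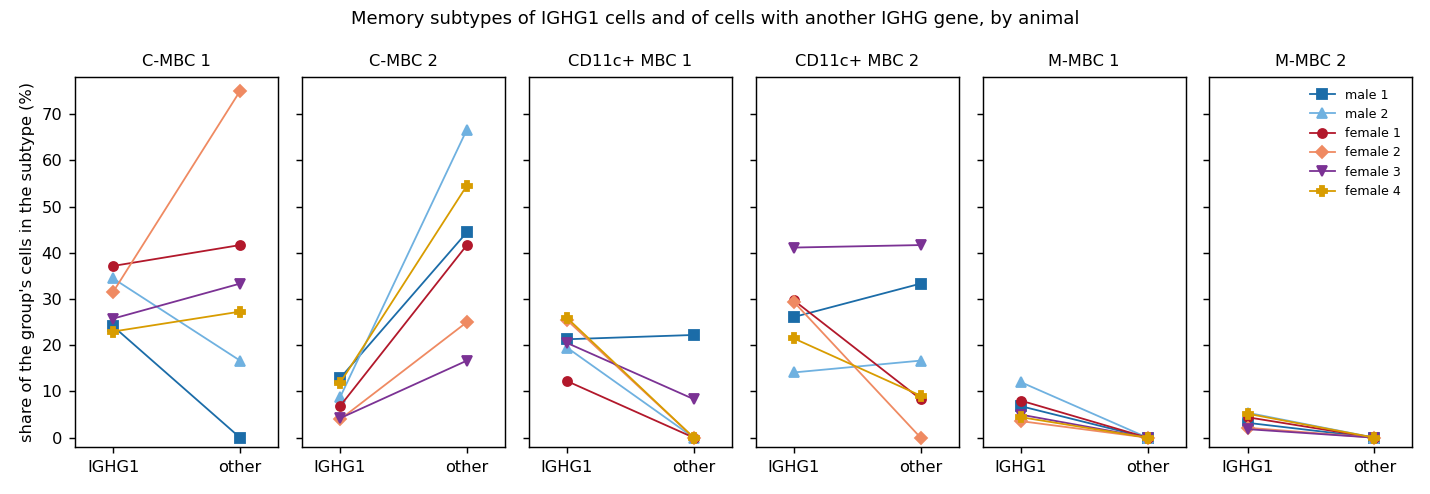
Lines join the percent of an animal's IGHG1 cells and of its other-subclass cells (vertical axis) that lay in each of 6 memory subtypes. All 6 lines rise in C-MBC 2, from 3.94 to 12.9% up to 16.7 to 66.7%, and all reach 0 in M-MBC 1 and M-MBC 2.

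The variable regions were estimated to carry more base differences in other-subclass cells, but the difference did not pass a test. With no germline sequence of these animals, divergence was counted against the closest form of the same IGHV gene that 3 or more unswitched cells of the animal shared with 2 or more CDR3s. Such a reference existed for 43 of 54 other-subclass and 1874 of 2163 IGHG1 cells. Mean divergence per 100 bases, other-subclass against IGHG1, was 5.46 against 3.71 in male 1, 7.81 against 3.61 in male 2, 5.67 against 4.83 in female 1, 4.67 against 5.66 in female 2, 4.83 against 4.15 in female 3, and 8.51 against 5.15 in female 4. It was higher in 5 of 6 animals, and female 2, with 3 such other-subclass cells, was the exception. The means were 6.16 ± 1.61 and 4.52 ± 0.83 (SD, n = 6), a difference of 1.64 ± 1.90 with an exact sign-flip permutation p = 0.125 (adjusted 0.25 over 4 measures). In the 2 animals with 10 or more such cells in both groups the difference was 0.758, where the smallest exact permutation p is 0.5. Cells with under 1 difference per 100 bases were 3 of 43 (6.98%) and 353 of 1874 (18.8%).

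By gene, mean divergence was 6.05 in IGHG2 (36 cells), 4.12 in IGHG3 (4), 7.28 in IGHG4 (3) and 4.38 in IGHG1. Outside IgG it was 1.45 in IGHM, 5.68 in IGHA and 8.15 in IGHE cells (7). Subtypes differed in divergence among IGHG1 cells, from 1.54 in M-MBC 1 and 2.04 in CD11c+ MBC 1 to 5.08 in C-MBC 2, 5.48 in CD11c+ MBC 2 and 5.55 in C-MBC 1. Within C-MBC 2 other-subclass cells had 6.83 (19 cells), within CD11c+ MBC 2 6.58 (7) and within C-MBC 1 5.53 (13). Taken within subtypes and averaged over those with cells of both groups, the difference over all 6 animals was 0.71 in place of 1.64 (exact permutation p = 0.344).

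Heavy CDR3s were longer by under 1 amino acid. Mean length was 16.9, 15.3, 16.9, 17.0, 16.9 and 17.0 amino acids in the other-subclass cells of male 1, male 2 and females 1 to 4, against 16.4, 15.6, 16.4, 16.3, 16.1 and 15.9 in their IGHG1 cells. It was longer in 5 of 6 animals and shorter in male 2. The difference was 0.83 ± 0.33 (SD, n = 3 animals, exact sign-flip permutation p = 0.25, the smallest possible) and 0.58 ± 0.48 over all 6 (exact permutation p = 0.0625, adjusted 0.25). Taken within subtypes it depended on the cells required, at 1.59 over 3 animals with 5 or more cells in both groups of a subtype (exact permutation p = 0.5) and 0.05 over all 6 with 1 or more (exact permutation p = 0.969). The means of female 1, 3 and 4 each include 1 of the 3 IGHG4 cells, with CDR3s of 26, 21 and 24 amino acids. Pooled over animals, IGHG2 cells alone averaged 16.4 amino acids (11 to 24) and IGHG3 cells 16.3, against 16.1 in IGHG1 cells. How far the difference rests on the IGHG4 cells was not tested.

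IGHV3 genes were more frequent and IGHV4 genes less frequent among other-subclass cells in most animals, and neither passed a test. IGHV3 was used by 42.3% ± 14.0 of other-subclass and 29.8% ± 3.36 of IGHG1 cells (SD, n = 6), higher in 5 animals (exact sign-flip permutation p = 0.0938, adjusted 0.25 over 6 families). IGHV4, the family used most by IGHG1 cells, was at 36.8% ± 15.4 and 52.4% ± 5.97, lower in 5 animals (exact permutation p = 0.125, adjusted 0.25). IGHV5 was at 14.7% and 2.91% in female 1, 3 and 4 (exact permutation p = 0.25), and at 0 among the other-subclass cells of the 3 remaining animals. The 54 cells used 33 IGHV genes and the 2163 IGHG1 cells 93.

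No single IGHV gene was called. Of 41 genes with 20 or more IgG cells, edgeR called 0 (0%) over 3 animals, with 1 at an unadjusted p under 0.05, and 0 over 6 animals, with 2. IGHV5-20 was that 1 gene, at 11.6% of other-subclass and 1.42% of IGHG1 cells in the 3 animals (log2 ratio 2.88 ± 1.19, edgeR adjusted p = 0.725). Of the most used genes, IGHV4-122 had 101 IGHG1 and 0 other-subclass cells, IGHV4-173 had 98 and 3, IGHV3-103 had 81 and 5, IGHV4-65 had 76 and 3, and IGHV1-111 had 69 and 1. For IGHV4-122, 0 of 54 cells allows a share of up to 5.56% (3 of 54), and its share among IGHG1 cells was 4.67%.

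Light chain use did not differ in a steady direction. Kappa chains were on 26 of 53 other-subclass and 987 of 2059 IGHG1 cells with 1 productive light chain. The share was 47.4% ± 16.0 against 46.9% ± 6.37 (SD, n = 6), higher in 3 animals and lower in 3 (exact permutation p = 0.938). Clones of 2 or more IgG cells with the same CDR3 bases held 2 of 54 other-subclass and 48 of 2163 IGHG1 cells, and the largest clone had 4 cells.

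**Figure D4:**
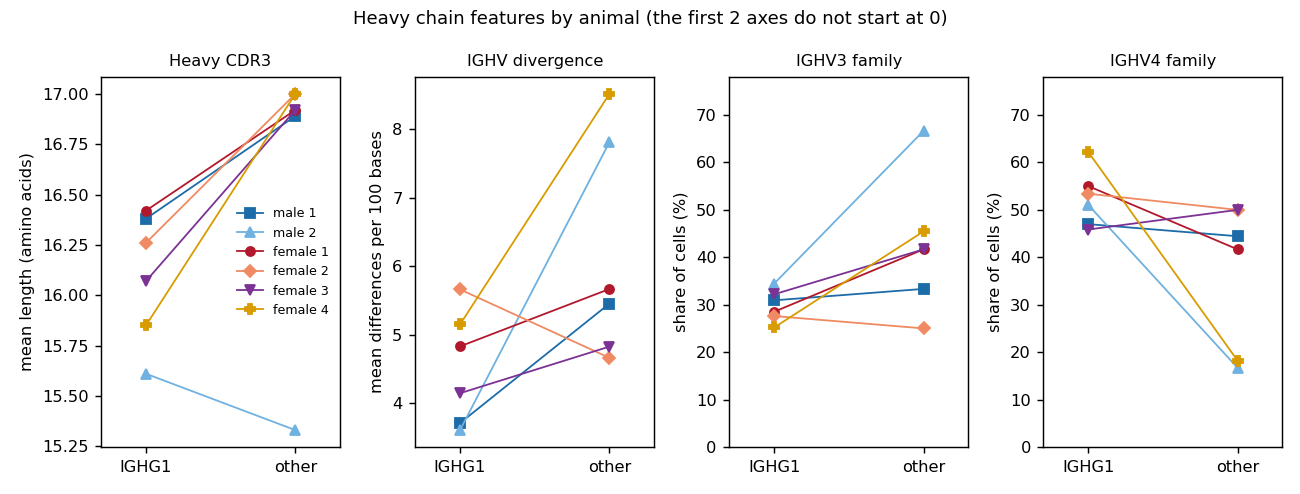
Lines join the IGHG1 and other-subclass values of each animal for mean heavy CDR3 length (amino acids), mean IGHV divergence (differences per 100 bases) and the shares of IGHV3 and IGHV4 genes (%). Divergence, CDR3 length and IGHV3 share are each higher in 5 of 6 animals and IGHV4 share is lower in 5, and only the last 2 axes start at 0.

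Gene expression was compared in raw UMI counts summed per animal and group, given below as CPM (each sum's counts scaled to the same total), with log2 differences as other-subclass minus IGHG1. The other-subclass sums were small, 26853 to 95210 counts from 4 to 12 cells, so that 1 count stood for 10.5 to 37.2 CPM, against 846672 to 5188419 counts in the IGHG1 sums. In the 3 animals with 10 or more cells in both groups, edgeR with the animal as block called 34 of 5972 genes (0.569%), 23 higher (0.385%) and 11 lower (0.184%) in other-subclass cells. With all 6 animals it called 138 of 5752 (2.40%), 57 higher (0.991%) and 81 lower (1.41%). The median over all genes tested was -0.03 and -0.07 on the log2 scale. Without female 1 the first comparison called 0 genes (409 at an unadjusted p under 0.05) and the second 66, without female 3 the first called 116, and without female 4 the second called 66. Without the animal block neither called any gene (424 and 358 at an unadjusted p under 0.05), and DESeq2 with the block called 21 and 47.

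A complement receptor gene, CR1, and RPL22L1 had the smallest p on the side higher in other-subclass cells. CR1, complement receptor 1 (CD35), was at 290.2, 73.5 and 230.8 CPM in the other-subclass cells of female 1, 3 and 4, against 31.5, 23.1 and 65.0 CPM in their IGHG1 cells. The groups did not overlap in these animals, and the log2 difference was 2.36 ± 0.36 (SE, edgeR adjusted p = 0.000949). In the animals outside that comparison CR1 was at 74.5 against 15.7 CPM in female 2, 41.6 against 28.9 in male 1 and 180.9 against 56.6 in male 2, so it was higher in all 6. RPL22L1, a paralogue of a large ribosomal subunit protein, was at 618, 210.1 and 616 CPM against 113, 77.3 and 286 CPM (log2 difference 1.71 ± 0.26, edgeR adjusted p = 0.000949), and was also higher in all 6 animals. CENPM, a centromere protein, PTP4A3, a protein tyrosine phosphatase, and TMEM273 were higher in each of the 6 animals too, with log2 differences over the 3 animals of 1.95, 2.27 and 2.00. The other largest differences on the higher side were in OGFRL1 (2.49), KLF8, a zinc finger transcription factor (2.19), MAML2, a Notch coactivator (1.93), SSPN, sarcospan (1.79), and FUT8, which adds the core fucose to N-glycans (1.75). Of these, MAML2 was higher in 4 of the 6 animals, and SSPN and FUT8 each in 5.

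SOX5, a transcription factor gene, was the most clearly lower gene. It was at 63.1, 252 and 44.0 CPM in the other-subclass cells of female 1, 3 and 4, against 699.8, 525 and 339 CPM in IGHG1 cells, a log2 difference of -2.08 ± 0.32 (edgeR adjusted p = 0.000949). In female 2, male 1 and male 2 it was at 112, 333 and 72.3 CPM against 364, 491 and 363 CPM, and over all 6 animals the groups did not overlap. ZEB2, also a transcription factor, had a log2 difference of -1.37 ± 0.26 and was lower in all 6 animals. CD86, a costimulatory ligand for T cells, had a log2 difference of -1.27 ± 0.25 over female 1, 3 and 4, but stood at 521 against 495 CPM in female 2 and 748 against 724 CPM in male 1. ID3, an inhibitor of helix-loop-helix transcription factors (-1.34), NSMAF (-1.68), LRRK2, a kinase (-1.74), SOCS3, a feedback inhibitor of cytokine signalling (-1.43), GLUD1, glutamate dehydrogenase (-0.98), and TNFRSF13B, the receptor TACI (-1.38), were also among the 10 largest called differences on the lower side.

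**Figure D5:**
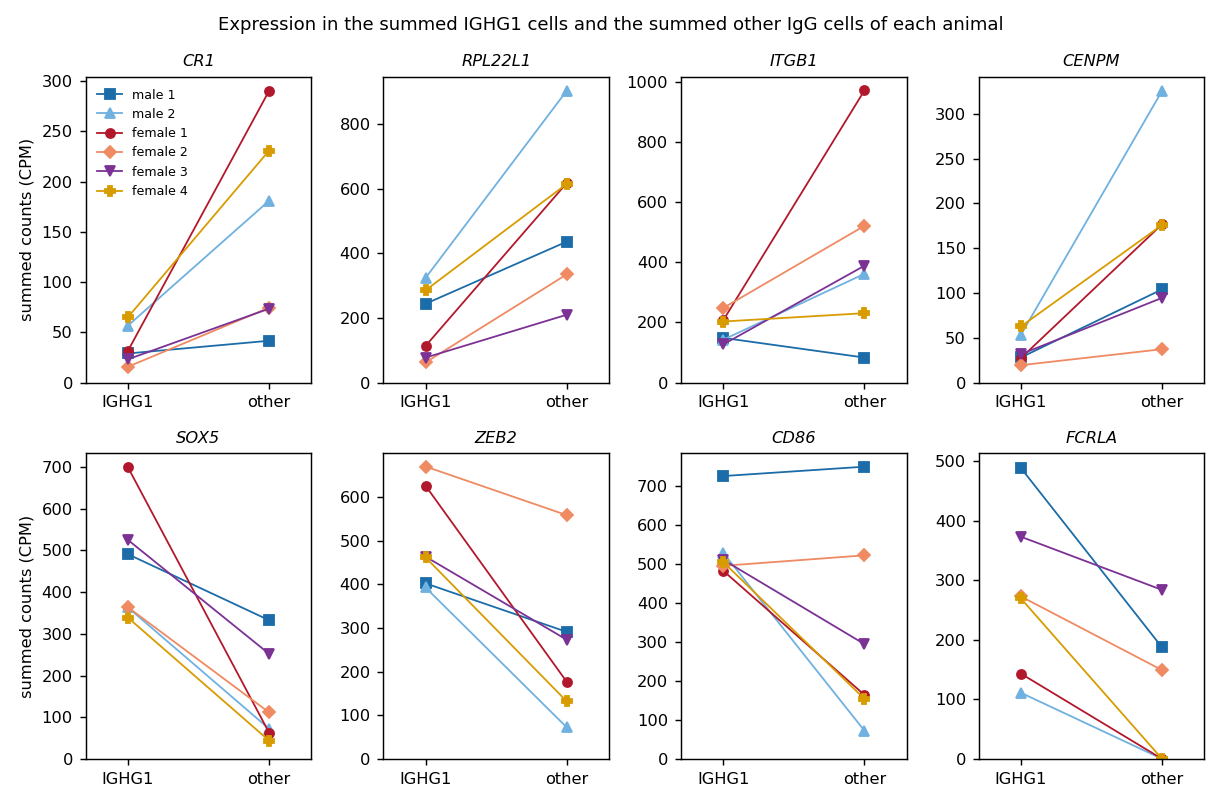
Lines join the summed expression (CPM) in IGHG1 and in other-subclass cells of each animal for 4 genes called higher (upper row) and, below, SOX5, ZEB2 and CD86, called lower in the 3-animal comparison, and FCRLA, called lower over 6 animals. CR1, RPL22L1 and CENPM rise and SOX5, ZEB2 and FCRLA drop in all 6 animals, whereas ITGB1 goes down in male 1 and CD86 goes up in female 2 and male 1.

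Of the 26 named genes linked to atypical (CD11c-bearing) memory B cells, 19 were measured over 3 animals and 4 fell, among them SOX5, ZEB2 and CD86, while none rose. The median of the 19 was -0.95, against -0.03 over all genes. For comparison with this list and those below, edgeR called 0.385% of all genes higher and 0.184% lower over 3 animals. Over 6 animals these shares were 0.991% and 1.41%. Over 6 animals 10 of 19 fell, with a median of -0.80 against -0.07, among them ITGAX, which encodes CD11c itself (-1.13, edgeR adjusted p = 4.51e-05, lower in 6 of 6 animals), LILRB1, an inhibitory receptor (-2.21), and FGR, a Src family kinase (-1.27). The cells also differed in their subtypes, as given above, and how far these genes follow the subtypes is taken up below.

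Of 19 measured memory genes, 2 rose over 3 animals and 1 fell, TNFRSF13B, and the list median was 0.28, against -0.03 over all genes. ITGB1, integrin beta 1, was higher by 1.51 ± 0.28 (530 against 179 CPM on average) and SSPN by 1.79. Over 6 animals 5 of 18 rose, with S100A6, a calcium-binding protein (0.96), CRIP1 (0.47) and CRIP2 (1.56) beside ITGB1 and SSPN. TNFRSF13B again fell (-0.94), and the list median was 0.11, against -0.07 over all genes. Among 14 homing genes 2 rose over 3 animals, ITGB1 among them. ITGB2, the partner chain of CD11c, was at -0.94 (adjusted p = 0.0648) over 3 animals and fell over 6 (-0.77).

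Genes of the IgG and Fc receptor list, which also holds Fc receptor-like genes, did not all move in 1 direction, but most were lower. In both comparisons 2 of the 6 measured were above 0. The list median was -0.89 over 3 animals and -0.86 over 6, against -0.03 and -0.07 over all genes. Of 6 measured genes of the IgG and Fc receptor list, FCER2, the low-affinity IgE receptor CD23, rose over 3 animals (2.18 ± 0.50, edgeR adjusted p = 0.0298), at 114 and 143 CPM against 16.6 and 24.8 CPM in female 1 and 4 but 10.5 against 13.9 CPM in female 3. Over 6 animals 3 of the 6 fell, FCRLA (-1.59, edgeR adjusted p = 6.74e-06), FCRL5 (-1.06) and FCRL1 (-0.82), all Fc receptor-like genes of B cells. FCRLA had 0 counts in the other-subclass cells of female 1, female 4 and male 2, and 284 against 373 CPM in female 3. FCGR2A, an Fc gamma receptor, was at -0.91 over 6 animals (adjusted p = 0.0874).

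No measured member of the list on switching and its signals was called in either comparison (11 genes, edgeR, 4 at an unadjusted p under 0.05 in each). Its smallest p over 3 animals belonged to HMCES, a protein that shields abasic sites (-1.37, adjusted p = 0.264), and to BATF, a transcription factor needed for switching (-1.86, adjusted p = 0.282). Of 21 cytokine receptor and STAT genes 1 fell over 3 animals, SOCS3, and 2 over 6, with TGFBR2, a receptor chain for TGF-beta (-1.07, adjusted p = 0.000675), added. IL10RA (-0.95), TGFBR2 (-0.91) and IL2RG (0.60) were not called over 3 animals. Of 14 TNF receptor and NF-kB genes, NFKBIA, the inhibitor of NF-kB, rose (1.01 ± 0.22, edgeR adjusted p = 0.0253) and TNFRSF13B fell.

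Other lists held few or no called members. PDIA4, a disulfide isomerase of the endoplasmic reticulum, rose (1.66) as the only 1 of 13 secretory genes. Of 14 naive B cell genes 2 rose, FCER2 among them. Among 19 B cell receptor signalling genes edgeR called none over 3 animals (6 at an unadjusted p under 0.05), where SYK was at -0.88, and 3 fell over 6 animals, SYK (-0.81), LYN (-0.64), both kinases of the receptor, and CD79A, its signalling chain (-0.50). None of 4 measured germinal centre and recirculation genes (LMO2 2.09, KLHL6 1.48), 13 MHC class II and presentation genes (CD1C -0.80, IFI30 -0.52), 7 interferon response genes, 15 immediate early and stress genes or 3 cell cycle genes was called by edgeR over 3 animals, where 3, 2, 1, 3 and 0 of them had an unadjusted p under 0.05. Over 6 animals edgeR called LMO2 of these lists higher (1.58), and CD1C (-0.88) and NR4A2, of the immediate early list (-0.52), lower. All 16 ribosomal protein genes measured over 3 animals were above 0, and edgeR called none there (1 at an unadjusted p under 0.05). Their median was 0.22 against -0.03 over all genes. Ribosomal protein UMIs were 16.9% ± 1.31 of other-subclass and 15.6% ± 1.66 of IGHG1 cells' UMIs (SD, n = 6), mitochondrial UMIs 2.20% and 2.13%, and median UMIs per cell 7102 and 6282. Their part in the gene differences was not tested.

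Defining B cell genes were present in both groups, MS4A1 (CD20) at 528 to 1378 CPM in other-subclass and 938 to 1649 CPM in IGHG1 sums and CD79A at 580 to 1901 and 1299 to 1971 CPM. Summed over the 10 NK cell markers in the table, levels were 0 to 209 CPM in other-subclass sums (median 20.8) and 52.2 to 575 CPM in IGHG1 sums (median 143), with KLRD1, PRF1, GZMA, NCR1 and KLRF1 at 0 in every other-subclass sum. GNLY (-3.09, adjusted p = 0.0648) and GZMB (-2.33, adjusted p = 0.0648) were not called. T cell markers (14 genes) summed to 36.2 to 473 and 83.0 to 357 CPM, and monocyte markers (10 genes) to 20.8 to 328 and 103 to 271 CPM, with CD14, S100A8, S100A9, FCN1, VCAN and CSF1R at 0 in every other-subclass sum. As 1 count is 10.5 CPM or more in those sums, a 0 cannot show a lower level for a gene that is rarer than that. In IGHG1 sums CD14 was at 0 to 1.21 CPM and CSF1R at 0 to 4.82 CPM. No measured marker of another cell type was called by edgeR over 3 animals, and apart from GNLY and GZMB none had an unadjusted p under 0.05.

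Between cells of the same animal and subtype no gene was called in pairs with 5 or more cells in both groups. The values of the leading higher genes were nearer to 0 there, a change between comparisons that was not itself tested. Calls over pairs with 3 or more cells are given further below. No animal and subtype had 10 cells in both groups, so pairs with 5 or more were used, C-MBC 1 and C-MBC 2 of female 1, CD11c+ MBC 2 of female 3 and C-MBC 2 of female 4. Pairs from 1 animal are not independent, so p-values over pairs may be too small. Over these 4 pairs edgeR with the pair as block called 0 of 1749 genes (0%), with 67 at an unadjusted p under 0.05, and DESeq2 also called 0. CR1 was at 0.70 ± 0.47 (higher in 2 of 4 pairs), RPL22L1 at 0.37 ± 0.36, CENPM at 0.40 ± 0.43 and ITGB1 at 0.67 ± 0.39, against 2.36, 1.71, 1.95 and 1.51 over all subtypes. On the lower side ZEB2 was at -0.57 ± 0.32, while CD86 was at -1.18 ± 0.32 (lower in 4 of 4 pairs, unadjusted p = 0.00203, edgeR adjusted p = 0.995) and TNFRSF13B at -1.30 ± 0.48. With 3 or more cells there were 10 pairs from all 6 animals, where CD86 was at -0.37 ± 0.22 (lower in 6 of 10), TNFRSF13B at -0.78 ± 0.29 (lower in 6) and ZEB2 at -0.45 ± 0.21 (lower in 7). SOX5 had too few counts in the 4 pairs, and over the 10 it was at -1.11 ± 0.30, lower in 9 (unadjusted p = 0.000905, edgeR adjusted p = 0.428). Of these genes none was called over the 10 pairs. Of the 26 atypical memory genes 8 were measured over the 4 pairs, with a median of -0.22 against -0.01 over all genes. Over the 10 pairs 12 were measured, with a median of -0.37 against -0.04. Neither set is the same as the 19 genes measured over all subtypes, so the medians do not compare like with like.

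SPAG16, which encodes a sperm flagellum protein, had the smallest p within subtypes. It was at 354 CPM in other-subclass and 797 CPM in IGHG1 cells, a log2 difference of -1.11 ± 0.24, lower in 4 of 4 pairs (edgeR adjusted p = 0.552). Over the 10 pairs 2 of 1502 genes were called (0.133%). SPAG16 fell by 1.07 ± 0.22 on the log2 scale, lower in 10 of 10 pairs, and FCRL1, an Fc receptor-like protein of B cells, fell by 1.23 ± 0.26, lower in 9 of 10 (edgeR adjusted p = 0.0346 for both), though voom called 0 genes there. These pairs include 2 from each of 4 animals. With 1 pair per animal, the subtype with the most other-subclass cells, edgeR called 1 of 1554 genes (0.0644%), SPAG16, at -1.38 ± 0.26 and lower in 6 of 6 (adjusted p = 0.0367), and FCRL1 was at -1.09 ± 0.32, lower in 5 of 6 (adjusted p = 0.851). Over all subtypes SPAG16 was at 328, 37.2, 599, 517, 437 and 145 CPM in the other-subclass cells of females 1 to 4, male 1 and male 2, against 936, 262, 1116, 627, 594 and 759 CPM in their IGHG1 cells. It was lower in each of the 6 animals, and the log2 difference was -0.84 ± 0.22 over 3 (adjusted p = 0.0779) and -1.004 ± 0.19 over 6 (edgeR adjusted p = 5.87e-05). PIM3, a serine/threonine kinase (1.21), VPS36 (-1.71), DUSP2, a MAP kinase phosphatase (0.59), ANXA1, annexin A1 (-0.77), ZSWIM6 (1.23), GDI2 (-0.84), CDC16 (1.15) and CLK4 (1.26) were the others with small p over the 4 pairs, and each had the same sign in all 4. With 10 pairs the values were nearer to 0 for DUSP2 (-0.08), VPS36 (-0.15), GDI2 (-0.33), ZSWIM6 (0.47), PIM3 (0.79) and ANXA1 (-0.65).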

How the data were processed

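Cells, constant genes and subtypes came from the authors' deposited tables. The deposited expression table holds raw UMI counts, per the file headers, and the deposited cell table the percent of UMIs from mitochondrial and ribosomal protein genes as the authors computed it. All 13849 cells of that table carry the authors' doublet call Singlet, so no doublet caller was run. Receptor files give UMI and read counts, gene calls and sequences per contig. Upstream tools, per the submitters' processing notes, were Seurat 5.0.1 in R 4.3.1 and Cell Ranger 9.0.1, while the genome build and receptor reference are not given in the sources used here.

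Counts were summed per animal and group and given to the quasi-likelihood test of edgeR 4.0.16 (R 4.3.3) after filterByExpr and TMM scaling, the animal being the block, and genes with a Benjamini-Hochberg adjusted p under 0.05 are called. The groups pair because both came from the same animal. Unnamed identifiers and immunoglobulin genes stayed out of library sizes. Sums needed 10 cells in both groups, and the all-animal fits and the pairs with 5 or 3 cells within subtypes were added after the cell numbers were seen, as was 1 pair per animal. Cell numbers per subtype and IGHV gene were tested with edgeR on the number of IgG cells, other measures by sign-flip permutation over animals. DESeq2 1.42.0 and limma 3.58.1 gave alternatives, and the edgeR gene test over animals was tried on simulated counts first. Within each gene comparison up to 10 called genes a direction with the largest difference, mean log2 CPM of 4 or more and 1 sign in every animal are named, or, where under 5 were called, the 10 with the smallest p, and 2 to 4 per list with the smallest p. Genes and lists were chosen with earlier results of these data known. Some genes that these rules would name are not reported here, though the counts include them.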

Additional observations from a re-analysis of the deposited data

Results flagged for a closer look

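A test for a sample far from the rest (Dixon's ratio) was run on 62 sets of animals, and chance alone flags about 1 in 20. The share of IgG cells with a gene other than IGHG1 stood apart in female 4, at 7.53% against 1.41 to 3.49% in the other animals, both among all 6 and among the 4 females. The mean CDR3 of other-subclass cells was 15.3 amino acids in male 2 and 16.9 to 17.0 in the other 5 animals. Female 1 stood apart in the kappa share, where other-subclass minus IGHG1 cells came to 33.1 percentage points against -15.5 to 2.43, and in the share of other-subclass cells in clones, 16.7% against 0 in the others, a difference from IGHG1 cells of 13.05 points that rests on the 1 IGHG3 clone. That clone also set the difference in M-MZL BC in female 1, 7.93 points. In IGHV7 use female 3 was at -2.37 points and the others at -0.80 to 0. In C-MBC 1 female 2, with 4 other-subclass cells, was at 43.5 points and the other females at 4.31 to 7.58.

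The share in C-MBC 1 moved in opposite directions in the sexes, other-subclass minus IGHG1. It was lower in both males (-20.9 points on average) and higher in all 4 females (15.0 points), 35.9 points apart. This difference was not tested, and sex and batch cannot be told apart.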

How the results depend on the processing

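Other-subclass cells were few, 4 to 12 per animal, and this limits every comparison: a gene needed several counts in sums where 1 count is 10.5 CPM or more, and exact tests over 3 animals cannot give a p under 0.25. The call counts depended on the settings, and the causes were not tested. Over 3 animals, 34 genes became 21 with DESeq2, 14 with voom and a weight per group (added after the data were seen), 83 with no filter on low counts, 75 without antibody-secreting cells, 0 to 116 with each animal left out, 118 with 5 animals and 138 with all 6. The higher share of the calls was 23 of 34 in the comparison as reported, 18 of 21 with DESeq2 and 18 of 36 with unnamed identifiers and immunoglobulin genes kept. Over 6 animals, 138 became 47 with DESeq2, 35 with voom, 230 with no filter and 66 to 121 with each animal left out. Within subtypes 0 became 7 with no filter, 1 with unnamed identifiers kept, 0 to 1 with each animal left out 2 with pairs of 3 or more cells and 1 with 1 such pair per animal. Subtype calls went from 1 to 3 with 5 or with 6 animals, and from 3 to between 1 and 3 with each of the 6 left out. Without the replicate block, which removes the animal pairing, genes called were 0 over 3 and 0 over 6 animals, and subtypes 0 and 1. IGHV gene calls were 0 in every setting run.

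The C-MBC 2 difference of 30.0 points ran from 23.6 to 38.8 with each animal left out and was 33.4 over all 6 animals. Only over all 6 was the unadjusted exact permutation p under 0.05 (0.03125), and adjusted over 8 subtypes it was 0.0833. CDR3 length and IGHV divergence kept their sign in each setting run, but within subtypes the CDR3 difference of 0.83 became 1.59 over 3 animals and 0.05 over 6. That for divergence was 0.93 within subtypes in the 1 animal that could be used, with no test, and 0.71 over 6. The kappa difference turned, from 6.60 to -6.66 without female 1 (-6.66 to 17.7 with each animal left out) and, within subtypes, 38.3 over 3 animals but -13.95 over 6, and so did that for cells in clones, at -2.14 without female 1 (to 5.87). Signs also turned for IGHV1 (1.07 within subtypes), IGHV2 (3.00 over all animals, 1.13 within subtypes), C-MBC 1 (-5.09 with 5 animals), M-MZL BC (-2.42 without female 1 and up to 3.77 with each animal left out, -1.77 with 1 cell per clone, -0.12 with 5 and -0.22 with 6 animals) and DUSP2 within subtypes (-0.0823 with 3 or more cells, -0.0443 with 1 pair per animal). The log2 ratio for C-MBC 1 was -0.14 with 5 animals and, from 6, -0.0211 with 3 or more heavy chain UMIs, -0.0116 without female 1, -0.139 without female 2, -0.0551 without female 3 and up to 0.257 with each animal left out. Settings with 20 or more cells, and males alone, left too few animals and were not run, and females alone are the 3 animals of the main comparison.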
